A study of Mus musculus with 11 samples.

Results

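Messenger RNA for 10 genes of transforming growth factor beta (TGF-beta) signalling was followed in the tibialis anterior (TA) muscle of dystrophic mice: the ligands *Tgfb1*, *Tgfb2* and *Tgfb3*, the receptors *Tgfbr1*, *Tgfbr2* and *Tgfbr3*, the latent binding proteins *Ltbp1*, *Ltbp3* and *Ltbp4*, and the TGF-beta induced matrix gene *Tgfbi*. They are 10 of 21759 gene symbols on the array, taken by name from the annotation, and were chosen with earlier results of these data known. Each had 1 probe set (a group of probes that reports on 1 transcript), and all 10 reached the minimum signal of 30 in every group. The mice were 3 C57 wild-type males of the C57/B10 strain, 4 untreated *mdx* males on the same background, whose *Dmd* mutation abolishes full-length dystrophin, and 4 *mdx* males given Pip6e-PMO. Pip6e-PMO is a morpholino antisense oligonucleotide joined to a cell-penetrating peptide, which makes the splicing machinery skip the mutated *Dmd* exon, and it was injected once into the tail vein at 12.5 mg/kg and 12 weeks of age. Muscles of all groups were taken at 14 weeks, and RNA of each mouse was read on a separate array (Affymetrix Mouse Gene ST 1.1). The untreated *mdx* mice are the only comparison for the treated mice, since no *mdx* group given saline or an inactive oligonucleotide was analysed here.

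TGF-beta is secreted as a dimer held inactive by its own propeptide, and in the matrix this complex is tethered to a latent TGF-beta binding protein (LTBP). Integrins and proteases free the ligand, which then joins a type II receptor (TGFBR2) to a type I receptor (TGFBR1), and the type I receptor phosphorylates Smad proteins that enter the nucleus. In injured and dystrophic muscle the pathway is known for driving matrix deposition by fibroblasts and for restraining the differentiation of myoblasts.

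The promoters of the 3 members whose transcripts differed most are shown because 2 of them, *Tgfb1* and *Tgfb2*, rose together in *mdx* muscle while the third, *Tgfbr1*, rose in treated muscle. Each runs 5′ to 3′ from 250 bases before to 50 bases after the RefSeq start site in GRCm38.p6, which gave entries for 8 of the 10 members. The capitals mark the SMAD box (CAGAC), the GC box (GGGCGG) and the TATA box (TATAAA), searched on both strands.
*Tgfb1*, chr7:25686752-25687051, plus strand: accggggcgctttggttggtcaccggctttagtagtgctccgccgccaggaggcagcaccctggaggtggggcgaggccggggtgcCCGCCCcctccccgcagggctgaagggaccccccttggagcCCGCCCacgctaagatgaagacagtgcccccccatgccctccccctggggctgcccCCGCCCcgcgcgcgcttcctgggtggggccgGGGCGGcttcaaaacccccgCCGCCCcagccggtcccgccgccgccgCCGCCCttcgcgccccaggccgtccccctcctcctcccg
*Tgfb2*, chr1:186705940-186706239, minus strand: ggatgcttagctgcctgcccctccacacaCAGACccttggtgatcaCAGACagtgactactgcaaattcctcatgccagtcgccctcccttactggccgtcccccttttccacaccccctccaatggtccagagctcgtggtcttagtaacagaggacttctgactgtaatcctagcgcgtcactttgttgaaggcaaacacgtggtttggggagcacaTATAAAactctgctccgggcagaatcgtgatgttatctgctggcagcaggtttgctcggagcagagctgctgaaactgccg
*Tgfbr1*, chr4:47352972-47353271, plus strand: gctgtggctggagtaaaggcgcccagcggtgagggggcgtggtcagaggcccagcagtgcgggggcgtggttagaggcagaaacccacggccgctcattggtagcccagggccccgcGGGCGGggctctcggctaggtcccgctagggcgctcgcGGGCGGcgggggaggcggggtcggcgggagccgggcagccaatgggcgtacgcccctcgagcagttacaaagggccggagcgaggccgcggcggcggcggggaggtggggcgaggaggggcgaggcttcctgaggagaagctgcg

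The *Tgfb1* promoter held 6 GC boxes, from -164 to 12 counted from the start site, and was 77.0% G and C. That of *Tgfb2* held no GC box, a TATA box at -31 and 2 SMAD boxes at -221 and -204, the letters that Smad proteins are known to read. The *Tgfbr1* promoter shown held 2 GC boxes, at -133 and -95, and that of a second RefSeq start site of *Tgfbr1*, chr4:47385966-47386265, held no GC box and a SMAD box at -203. Among all 32851 promoters of the same length, 49.6% held a SMAD box, 35.7% a GC box and 13.6% a TATA box, so the first 2 motifs are common. A match is only a match of letters.

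Some features of the arrays bear on every value below. Median intensity per array was 27.5 to 28.6. *Dmd* itself, on the log2 scale used throughout, was 5.87, 5.83 and 5.77 in C57 mice, 5.82, 5.36, 5.33 and 4.60 in *mdx* mice, and 6.34, 5.51, 5.68 and 5.68 in treated mice, with a limma adjusted p of 0.198 for *mdx* against C57 and 0.142 for treated against *mdx*. A single probe set for a gene of many exons does not tell a mutated or skipped exon from an intact one, so it does not check the labels. The 10 fibre markers (among them *Acta1*, *Ckm* and *Myh4*) summed to an intensity of 64767 to 68974 over the 11 mice, as a limb muscle should give, and limma called 0 of them in *mdx* (1 lower without Pip6e-PMO mouse 2, 1 lower at an unadjusted p under 0.05, 0 by the methods' t-test). After treatment 1 of the 10 fibre markers was called, *Myh2* (fast oxidative myosin), which averaged 9.25 in C57, 8.25 in *mdx* and 9.70 in treated mice and rose by 1.45 against *mdx* (adjusted p = 0.0158, lost only without *mdx* mouse 4). Its part in the treated values below was not tested. None of the 7 T cell markers reached the minimum signal. Pip6e-PMO mouse 2 stood apart, with a deviation of 0.285 from its group mean over all probe sets tested, against 0.115 to 0.196 in the other 10 mice. This is the median absolute deviation, scaled to estimate a standard deviation. C57 mouse 3 was the lowest of its group for 7 of the 10 TGF-beta genes.

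In untreated *mdx* muscle, *Tgfb1* and *Tgfb2* rose against C57 and no TGF-beta gene fell. Thus 2 of the 10 passed an adjusted p under 0.05 (limma with Benjamini-Hochberg adjustment over the 14494 probe sets tested), beside 12.0% of all probe sets (7.06% called and higher). None of the 10 was lower at an unadjusted p under 0.05 or by the methods' t-test. For 4 of the 10 every *mdx* mouse lay above every C57 mouse, where the groups did not overlap for 24.3% of all probe sets, with *mdx* the higher in 13.1%. The median difference was 0.25 over the 10 genes and -0.01 over all probe sets.

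After Pip6e-PMO, *Tgfb1* lay below all untreated *mdx* mice in 3 of the 4 treated mice, without passing the test, and *Tgfb2* was 0.15 above its *mdx* mean, which did not pass either. *Tgfbr1* was the 1 member of 10 that rose against *mdx*, where 11.1% of all probe sets were called and 7.26% called and higher. It was also the 1 member whose groups did not overlap, against 16.0% of all probe sets, with the treated mice the higher in 9.29%. The median difference from *mdx* was 0.06 over the 10 genes and 0.02 over all probe sets. Against C57, the treated mice had 3 members called, *Tgfb2*, *Tgfbr1* and *Tgfbr3*, all higher, beside 24.6% of all probe sets (15.6% higher), and 5 whose groups did not overlap, all higher, beside 32.0% (17.9% higher). This last comparison shares its mice with the other two.

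**Figure D1:**
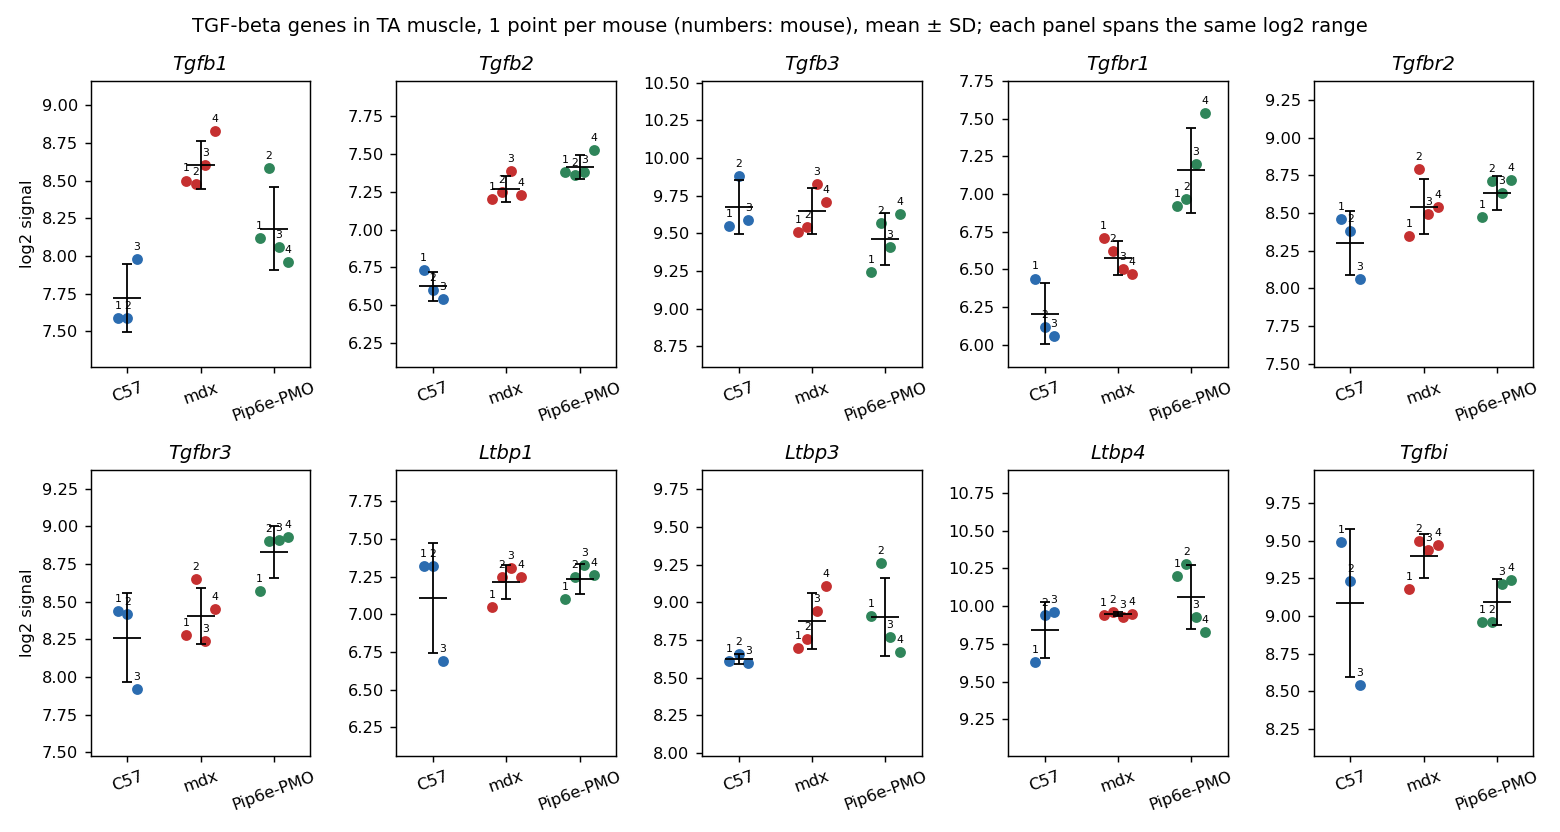
Log2 signal (vertical axis, spanning the same range in every panel) of the 10 TGF-beta genes in each mouse by group, with the mouse number above its point and bars for the mean ± SD. *Tgfb1* and *Tgfb2* lie higher in all 4 *mdx* mice than in all 3 C57 mice, *Tgfb2* overlaps between *mdx* and treated mice, and *Tgfbr1* is highest in the treated mice (6.92 to 7.54).

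*Tgfb1*, the main TGF-beta isoform of inflamed tissue, had a log2 signal of 7.59, 7.59 and 7.98 in the C57 mice, 8.50, 8.48, 8.60 and 8.83 in the *mdx* mice, and 8.12, 8.58, 8.06 and 7.96 in the treated mice. All *mdx* mice were above all C57 mice, while Pip6e-PMO mouse 2 lay within the *mdx* range and the other 3 treated mice below it. The means were 7.72 ± 0.23 (SD, n = 3), 8.60 ± 0.16 (SD, n = 4) and 8.18 ± 0.27 (SD, n = 4). *Tgfb1* rose in *mdx* by 0.88 (SE 0.16), a 1.84-fold difference with an adjusted p of 0.00372, and the call held with each of the 11 mice left out in turn. It was lost with an unequal-variance test (adjusted p = 0.103) and kept with the methods' t-test (0.0393).

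The treated minus *mdx* difference of *Tgfb1* was -0.42 (95% interval -0.74 to -0.10), with an adjusted p of 0.0770. Without Pip6e-PMO mouse 2 it was -0.56 with an adjusted p of 0.00927, so that mouse decided the call. This was the 1 call in the 11 fits that leave out a mouse, with adjusted p values up to 0.196. Expressed as restoration, the share of the *mdx* minus C57 difference that was undone, the treated group mean gave 47.9%, and mice 1 to 4 gave 54.7%, 2.55%, 61.5% and 72.8%. Treated mice remained 0.46 above C57 with an adjusted p of 0.0519. That value fell to 0.0421 without C57 mouse 3, the highest of its group, and to 0.0484 without Pip6e-PMO mouse 4, the lowest of its group. Only these 2 of the 11 fits that leave out a mouse gave a call. Adjusted p reached 0.161 in such fits, with differences from 0.33 to 0.59.

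*Tgfb2*, an isoform better known from development and from differentiating muscle, had a log2 signal of 6.73, 6.60 and 6.54 in C57, 7.20, 7.25, 7.39 and 7.23 in *mdx*, and 7.38, 7.36, 7.38 and 7.53 in treated mice. The C57 mice lay apart below all others, and the *mdx* and treated ranges overlapped. *Tgfb2* rose in *mdx* by 0.64 (SE 0.09), a 1.56-fold difference with an adjusted p of 0.000869, and in treated mice by 0.79 (SE 0.09) against C57, 1.73-fold with an adjusted p of 0.000237. Both calls held with every mouse left out in turn. Between treated and *mdx* mice the difference was 0.15 (95% interval -0.04 to 0.33, adjusted p = 0.261). The restoration of *Tgfb2* was negative in each treated mouse, from -40.8% to -14.4%, which means that each lay farther from C57 than the *mdx* mean did.

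*Tgfb3*, the third isoform, read 9.55, 9.88 and 9.59 in C57, 9.51, 9.54, 9.83 and 9.71 in *mdx*, and 9.24, 9.57, 9.41 and 9.63 in treated mice. The groups overlapped in all 3 comparisons. The *mdx* minus C57 difference was -0.03 (95% interval -0.30 to 0.25), and the treated minus *mdx* difference was -0.19 (-0.44 to 0.07, adjusted p = 0.306).

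*Tgfbr1*, the type I receptor kinase, had a log2 signal of 6.44, 6.12 and 6.06 in C57 mice, 6.71, 6.62, 6.50 and 6.47 in *mdx* mice, and 6.92, 6.97, 7.20 and 7.54 in treated mice. The 3 groups were stacked without overlap, although C57 mouse 1 lay just under *mdx* mouse 4. In *mdx* the difference from C57 was 0.37 with an adjusted p of 0.149. *Tgfbr1* rose after treatment by 0.58 (SE 0.14), a 1.497-fold difference with an adjusted p of 0.0270. It lay 0.95 (SE 0.15) above C57, 1.93-fold with an adjusted p of 0.00149.

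The treated minus *mdx* call of *Tgfbr1* was narrow. The adjusted p was 0.0673 without *mdx* mouse 3, 0.0772 without *mdx* mouse 4, 0.0667 without Pip6e-PMO mouse 3 and 0.0692 without Pip6e-PMO mouse 4, with differences from 0.46 to 0.57 in these 4 fits. The methods' t-test gave an adjusted p of 0.117 for this difference and 0.0503 for treated against C57. Without Pip6e-PMO mouse 2 the difference was no smaller, 0.65 with an adjusted p of 0.0102.

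*Tgfbr2*, the type II receptor that binds the ligand first, read 8.46, 8.38 and 8.06 in C57, 8.35, 8.79, 8.49 and 8.54 in *mdx*, and 8.47, 8.71, 8.63 and 8.72 in treated mice. All treated mice lay above all C57 mice, if only just, and the *mdx* mice overlapped both. No difference passed the test, the largest being 0.33 for treated against C57 (95% interval 0.05 to 0.61, adjusted p = 0.0769).

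*Tgfbr3* encodes betaglycan, a coreceptor without kinase activity that presents ligand, TGF-beta2 above all, to the type II receptor. Its log2 signal was 8.44, 8.42 and 7.92 in C57, 8.28, 8.65, 8.24 and 8.45 in *mdx*, and 8.57, 8.90, 8.91 and 8.93 in treated mice. The C57 and *mdx* mice overlapped, and treated mouse 1 lay below *mdx* mouse 2 while the other 3 treated mice lay above all *mdx* mice. *Tgfbr3* rose by 0.57 (SE 0.15) in treated against C57 mice, 1.48-fold with an adjusted p of 0.0198, but the difference was 0.40 with an adjusted p of 0.0914 without C57 mouse 3, and 0.53 with 0.0509 without Pip6e-PMO mouse 4. The methods' t-test gave an adjusted p of 0.108. Against *mdx* the difference was 0.42, and its adjusted p of 0.0698 became 0.0470 without C57 mouse 3. That was the 1 call in the 11 fits that leave out a mouse, with values up to 0.162.

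The latent binding proteins showed no called difference in any comparison. *Ltbp1*, which carries most latent TGF-beta into the matrix, read 7.32, 7.32 and 6.69 in C57 mice against 7.05 to 7.31 across *mdx* and 7.10 to 7.33 across treated mice, so that the groups overlapped and C57 mouse 3 alone was low. Its *mdx* minus C57 difference of 0.11 became -0.105 without that mouse.

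*Ltbp3*, which serves TGF-beta secretion, read 8.61, 8.66 and 8.60 in C57, 8.70, 8.76, 8.94 and 9.11 in *mdx*, and 8.91, 9.26, 8.77 and 8.67 in treated mice. Every *mdx* and treated mouse lay above the C57 mice, yet the differences of 0.25 and 0.28 had adjusted p values of 0.303 and 0.163. *Ltbp4*, an LTBP of elastic fibres and a known modifier of muscular dystrophy in mice, read 9.63, 9.94 and 9.96 in C57, 9.93 to 9.96 in *mdx*, and 10.20, 10.28, 9.93 and 9.83 in treated mice. The *mdx* mice were close together within the C57 range, and treated mice 1 and 2 lay above them. The *mdx* minus C57 difference of *Ltbp4* was 0.10 (95% interval -0.17 to 0.37).

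*Tgfbi* encodes a secreted matrix protein first found as a TGF-beta induced transcript. It read 9.49, 9.23 and 8.54 in C57, 9.18, 9.50, 9.44 and 9.47 in *mdx*, and 8.96, 8.96, 9.21 and 9.24 in treated mice. The C57 mice spanned more than the other groups, because mouse 3 was low. The *mdx* minus C57 difference was 0.31 (95% interval -0.10 to 0.72, adjusted p = 0.345) and the treated minus *mdx* difference was -0.31 (-0.68 to 0.07, adjusted p = 0.252). Without C57 mouse 3 the first was 0.04. Neither difference was called with any mouse left out.

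**Figure D2:**
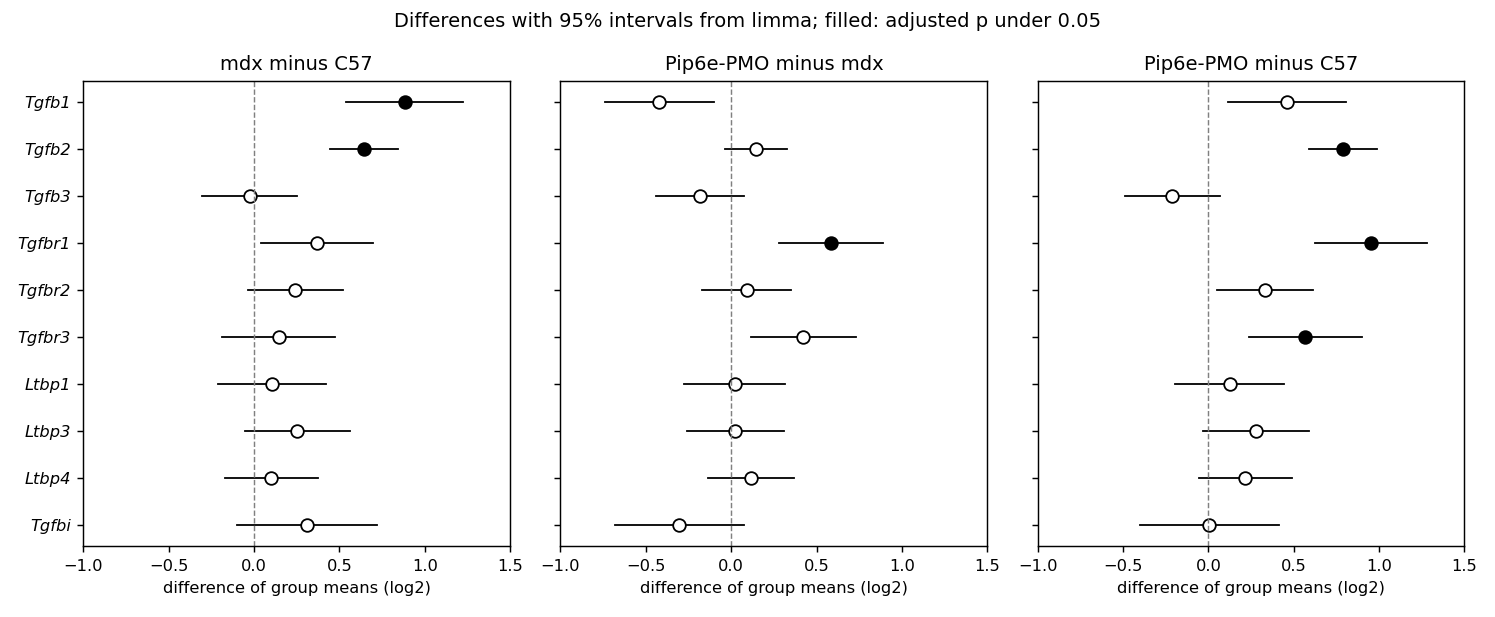
Differences of group means on the log2 scale (horizontal axis) with 95% intervals from limma for the 10 TGF-beta genes in the 3 comparisons, filled where the adjusted p was under 0.05. *Tgfb1* is 0.88 higher in *mdx* and -0.42 from *mdx* after treatment, *Tgfb2* is higher than C57 with and without treatment, and *Tgfbr1* is filled in the panels of both treated comparisons.

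Markers of other cells also differed between the groups, and in whole muscle fewer cells of a type and less RNA per cell cannot be told apart. Of 8 macrophage markers tested, 7 rose in *mdx*, among them *Cd68* (a lysosomal protein) by 2.12 and *Lyz2* (lysozyme) by 1.70. The count was 4 without C57 mouse 3 and 2 by the methods' t-test. Of the 7, *Itgam* and *Fcgr1* (named outside the naming rule) averaged 4.82 and 4.55 in C57 mice. Both averages lay under the minimum signal, 4.91 on this scale, so these genes were tested only because of their levels in the other groups. The macrophage list summed to an intensity of 974 to 1409 across C57, 2515 to 4005 across *mdx* and 2089 to 2656 across treated mice, without overlap between C57 and the rest. Pip6e-PMO mouse 2, the treated mouse with the highest *Tgfb1*, had the highest macrophage sum of its group, 2656. After treatment 1 of the 8 rose and 1 fell, beside 11.1% of all probe sets called. *Mrc1* (the mannose receptor, outside the naming rule and chosen after its values were seen) rose by 0.49 (adjusted p = 0.0377), a call that held in 4 of the 11 fits that leave out a mouse, with values up to 0.105 without Pip6e-PMO mouse 4. *Cd68* fell by 1.04 (0.0245), a call lost without *mdx* mouse 2 (0.0527), *mdx* mouse 4 (0.0717) or Pip6e-PMO mouse 1 (0.0650), 3 or 4 (0.0655 each).

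Among 7 regenerating fibre and satellite cell markers tested, 5 rose in *mdx* (2 by the methods' t-test), with *Mymk* (the myoblast fusion protein myomaker) 3.28 higher. *Myh3* (embryonic myosin) was under the minimum signal in all C57 mice and averaged 6.12 in *mdx*. It was tested only because of its levels in the other groups. The list summed to 686 to 871 in C57 and 1382 to 2103 in *mdx* mice. In treated mice 1 to 4 the sum was 974, 1572, 852 and 965, so Pip6e-PMO mouse 2 lay in the *mdx* range as it did for *Tgfb1*. Of the 7 markers limma called 0 in treated against *mdx* mice, with 3 lower at an unadjusted p under 0.05 and 0 by the methods' t-test. Without Pip6e-PMO mouse 2, 4 of the 7 were called lower, in a fit that called 4123 of all 14535 probe sets. Fibroblast markers summed to 8734 to 10506 across C57, 11809 to 13581 across *mdx* and 9936 to 15225 across treated mice, highest in Pip6e-PMO mouse 2. Single markers differed in that mouse. It was the highest treated mouse for *Col1a1* (11.87), *Col1a2* (11.39), *Col3a1*, *Thy1* and *Ly6a*. For *Pdgfra* (7.61), *Dcn* (11.06) and *Cd34* (9.78) it was the lowest. Apart from *Col3a1*, these genes lie outside the naming rule and were chosen after their values were seen. Of the 10 fibroblast markers, 4 rose in *mdx* (2 without C57 mouse 3, 1 by the methods' t-test), *Lum* (lumican) by 1.56 and *Col3a1* by 1.38. The part of these cells in the *Tgfb1*, *Tgfb2* and *Tgfbr1* values was not tested.

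**Figure D3:**
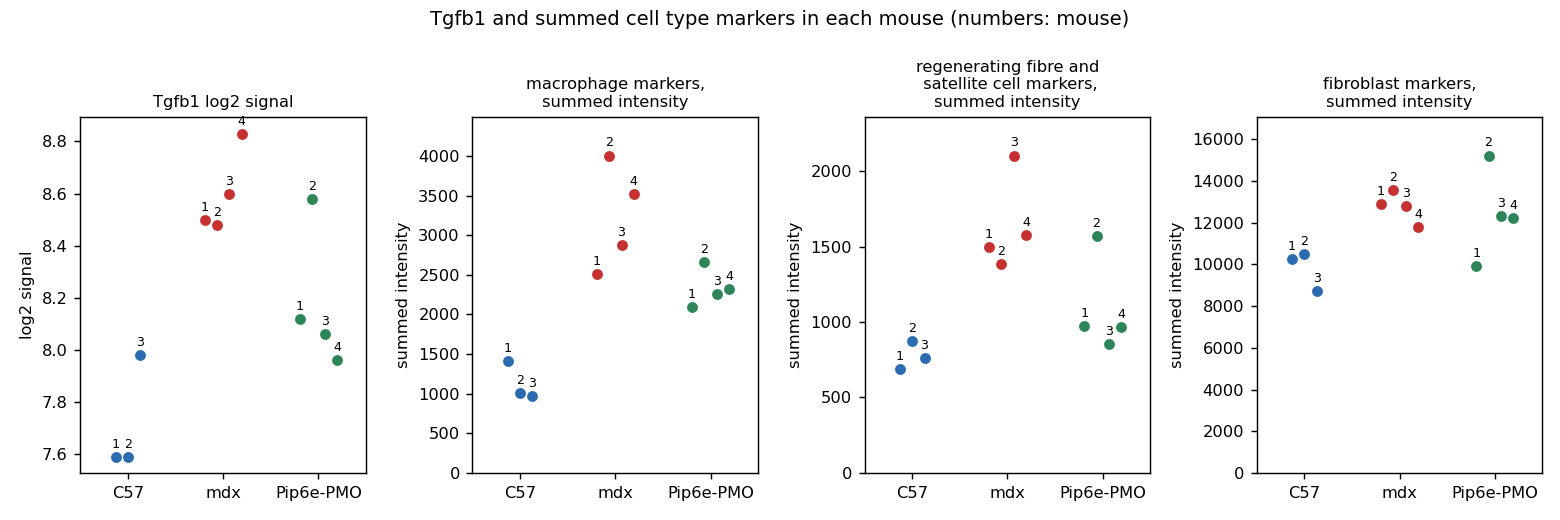
*Tgfb1* log2 signal and the summed linear intensities of macrophage, regenerating fibre and satellite cell, and fibroblast markers in each mouse by group, with the mouse number above its point. Pip6e-PMO mouse 2 is the highest treated mouse in all 4 panels (8.58 for *Tgfb1*, 2656 for macrophage markers). It was the lowest treated mouse for the single fibroblast markers *Pdgfra*, *Dcn* and *Cd34*.

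The rest of the pathway was read from 5 lists with 77 genes, written with earlier results of these data known. The signal filter was passed by 72. Of these, 24 were called in *mdx* against C57, 21 higher and 3 lower, beside the 12.0% of all probe sets given above. In treated against *mdx* mice 8 were called, 4 in each direction, a share close to the 11.1% of all probe sets. The count for treated mice was 22 without Pip6e-PMO mouse 2. It was 2 without *mdx* mouse 4 or Pip6e-PMO mouse 4, and 3 without Pip6e-PMO mouse 3. It was 4 without *mdx* mouse 3 or Pip6e-PMO mouse 1, and 5 without C57 mouse 2. Calls over all probe sets moved in the same way, from 1615 of 14494 to 4123 of 14535 without Pip6e-PMO mouse 2. They fell to 353 of 14495 without *mdx* mouse 4 and to 296 of 14488 without Pip6e-PMO mouse 4. List counts given below without Pip6e-PMO mouse 2 come from that same fit. For *mdx* against C57 the pathway count was 15 without C57 mouse 1 and 14 without C57 mouse 2. All probe sets called there were 1437 of 14529 and 1006 of 14502.

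Among the partners and activators of the latent complex, 8 of 16 rose in *mdx* and none fell, with a median difference of 0.52. *Mmp14*, a membrane metalloprotease, was 7.67 ± 0.20 in C57 and 9.20 ± 0.10 in *mdx*, a rise of 1.53 with an adjusted p of 0.000296, and *Mmp2*, the gelatinase it activates, rose by 0.80. *Fbn1*, the fibrillin of the microfibrils to which LTBPs attach, rose by 0.74, and *Emilin1*, a microfibril protein known to limit the processing of TGF-beta precursor, by 0.81. The *Emilin1* call was lost without *mdx* mouse 3 (adjusted p = 0.0651), *mdx* mouse 4 (0.0628) or any C57 mouse (0.0671 to 0.0794). The list had 4 calls without C57 mouse 3.

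After treatment this list had 1 gene higher and 1 lower (12.5%), with a median of -0.14. This share is close to the 11.1% of all probe sets called. Without Pip6e-PMO mouse 2 it had 2 higher and 2 lower with a median of -0.25, in the fit that called 4123 of all 14535 probe sets. *Itgav*, the integrin alpha-v subunit that pulls ligand from the latent complex, rose by 0.50 (adjusted p = 0.0452) on top of a rise of 0.56 in *mdx*, and *Ltbp2*, the family member that does not bind latent TGF-beta, fell by 0.54 (0.0330) after a rise of 0.55. *Ltbp2* was 4.62, 4.84 and 4.86 in C57, 5.38, 4.98, 5.59 and 5.33 in *mdx* and 4.56, 5.04, 4.72 and 4.82 in treated mice, so 3 of the 4 treated mice lay below all *mdx* mice. All C57 mice and these 3 lay under the minimum signal, 4.91 on this scale, so *Ltbp2* was tested only because of its level in *mdx*. Both treated calls were weak: that of *Itgav* held in 3 and that of *Ltbp2* in 5 of the 11 fits that leave out a mouse, with adjusted p values up to 0.124 (*Itgav* without Pip6e-PMO mouse 4) and 0.0872 (*Ltbp2* without Pip6e-PMO mouse 1). The *mdx* calls of both held in 5 of 11, with values up to 0.141 and 0.116 (without C57 mouse 3 and C57 mouse 1).

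Coreceptors and extracellular inhibitors had 2 of 9 higher in *mdx*, with a median of 0.15. *Bgn* (biglycan, a proteoglycan that binds TGF-beta) rose by 0.82 from 10.88 ± 0.03 to 11.70 ± 0.10, and *Htra3*, a secreted serine protease that inhibits TGF-beta signalling, rose by 0.72. After treatment limma called 0 of the 9, with 3 lower and 0 higher at an unadjusted p under 0.05 and 0 by the methods' t-test with adjustment, and the median was -0.24. Without Pip6e-PMO mouse 2, 3 of the 9 were called lower, in the fit that called 4123 of all 14535 probe sets.

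Of the Smads and their regulators, 2 of 14 rose in *mdx* and none fell, close to the 12.0% of all probe sets called, and the median was 0.07. Without C57 mouse 3 the count was 1 and the median 0.04. *Pmepa1*, a target gene that restrains Smad signalling, rose by 0.76 (adjusted p = 0.00855), and *Tgif1*, a Smad corepressor, rose by 0.39 in *mdx* and fell by 0.35 after treatment. The 2 calls of *Tgif1*, at 0.0386 and 0.0499, held in 3 and 1 of the 11 fits that leave out a mouse, with values up to 0.111 (without C57 mouse 1) and 0.122 (without Pip6e-PMO mouse 1). *Zfyve9*, the anchor protein that brings Smads to the receptor, was 7.25 ± 0.22 in *mdx* and 7.88 ± 0.31 in treated mice, a rise of 0.63 (adjusted p = 0.0355) called in 5 of 11 such fits, with 0.103 without Pip6e-PMO mouse 4 as the highest value. After treatment the Smad list had 1 gene higher and 1 lower (14.3%), beside 11.1% of all probe sets called. Without Pip6e-PMO mouse 2 it had 4 higher and 1 lower, in the fit that called 4123 of all 14535 probe sets.

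Genes known to be induced by TGF-beta had the highest median of the 5 lists in *mdx*, 0.66, with 7 of 16 higher and none lower. *Timp1*, a metalloprotease inhibitor, was 6.0, 5.19 and 5.94 in C57, 9.06, 8.96, 8.61 and 10.23 in *mdx*, and 7.02, 8.66, 7.70 and 7.34 in treated mice. Pip6e-PMO mouse 2 alone reached the *mdx* range. *Timp1* rose by 3.51 (SE 0.41) in *mdx* and fell by 1.54 after treatment (adjusted p = 0.0295), a call lost without *mdx* mouse 4 (0.0761) or Pip6e-PMO mouse 1 (0.0795), 3 (0.0670) or 4 (0.0847).

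*Cdkn1a*, the cell cycle inhibitor p21, rose by 2.04 and fell by 0.93 after treatment, and both calls held with every mouse left out. The matrix genes *Postn* (periostin) and *Col3a1* (a fibrillar collagen) rose by 2.16 and 1.38 in *mdx*, and differed by -0.24 and -0.12 between treated and *mdx* mice, which did not pass the test. *Postn* was under the minimum signal in C57 mice 1 and 2, and its rise was lost without C57 mouse 1 (0.0519) or 2 (0.0843). In all, 2 of the 16 induced genes (12.5%) fell after treatment, with a median of -0.21. This share is close to the 11.1% of all probe sets called. Without Pip6e-PMO mouse 2, 4 fell and 1 rose, in the fit that called 4123 of all 14535 probe sets. Many of these genes are also known to be expressed by fibroblasts and macrophages. The part of these cells in the values of this list was not tested. *Col1a1*, *Col1a2* and *Col3a1* stood on both this list and the fibroblast marker list. *Acta2* stood on this list and on that of pericyte and smooth muscle markers. Of these genes only *Col3a1* falls under the naming rule.

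**Figure D4:**
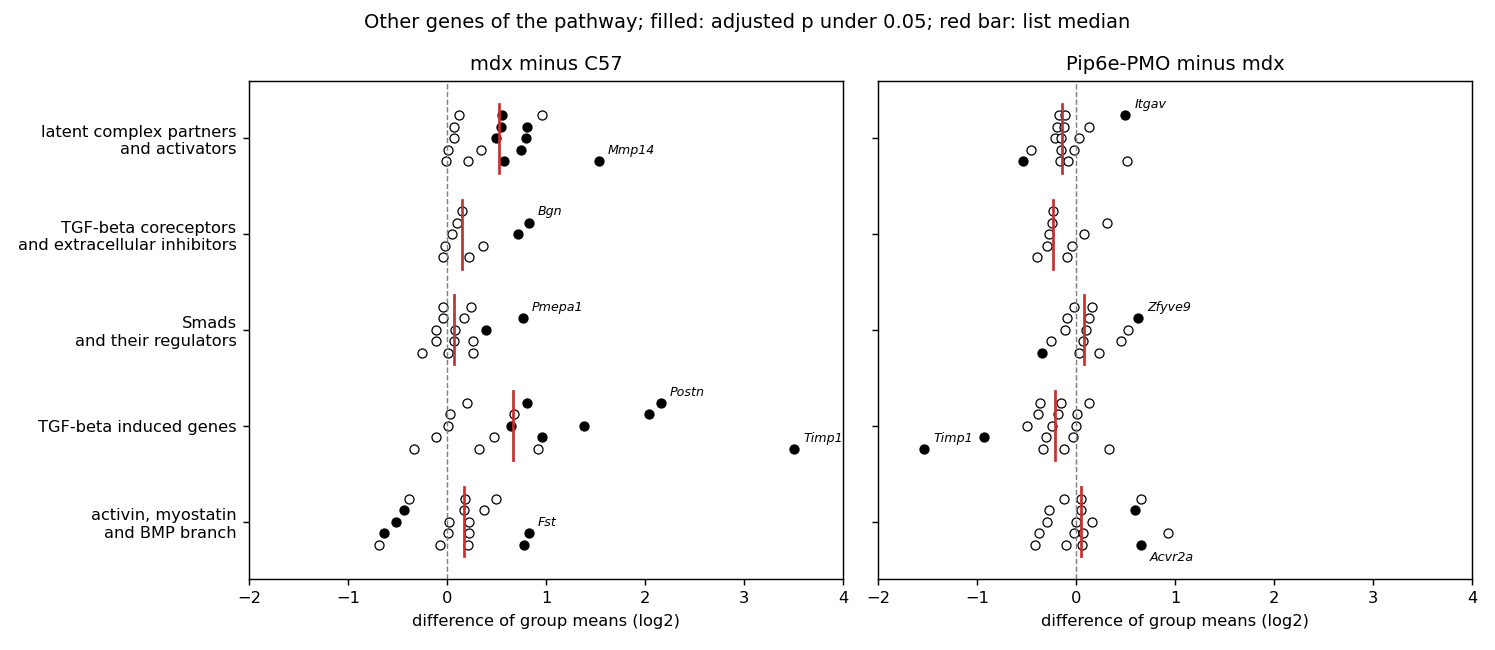
Differences of group means on the log2 scale (horizontal axis) for the 72 tested genes of the 5 pathway lists, filled where the adjusted p was under 0.05, with a red bar at each list's median. In *mdx* the latent complex and induced gene lists have medians of 0.52 and 0.66, and after treatment all 5 medians lie between -0.24 and 0.08.

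Over the 11 mice, the genes whose log2 signal was most like that of *Tgfb1* were *Il4ra* (an interleukin 4 receptor subunit, Pearson r = 0.990), *H2-DMb2* (a class II antigen-loading protein, r = 0.969) and *Npdc1* (r = 0.968). *Il4ra* averaged 7.18 in C57, 8.03 in *mdx* and 7.67 in treated mice, between its C57 and *mdx* means after treatment as *Tgfb1* was. For *Tgfbi* they were *Atxn10* (r = 0.917), *Ap2b1* (r = 0.915) and *G6pdx* (r = 0.906). The mice come from 3 groups on the same arrays, so differences between groups enter every r, which only describes likeness.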

How the data were processed

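RNA from TA sections of 11 mice (3 C57, 4 *mdx*, 4 *mdx* treated with Pip6e-PMO) was hybridized at 100 ng per array. The deposited values are linear intensities of 28350 probe sets, which the authors obtained with the RMA-Sketch procedure of Affymetrix Expression Console (background correction, quantile normalization, median polish). Here they were log2 transformed, and 14494 probe sets whose mean intensity reached 30 in any group were fitted together with limma 3.58.1 in R 4.3.3 (a mean for each group, lmFit and eBayes, two-sided), with Benjamini-Hochberg adjustment. The precision is limited by the number of arrays and by the spread between arrays of a group. Each mouse was read on a separate array, so this spread holds differences between mice and between array runs together. The p-values set the group differences against that spread.

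Levels of different probe sets were not compared, and the deposited probe set positions, for which no build is given in the sources used here, were not used. For other genes the probe set with the highest mean signal was taken. Besides the 10 members, the text names up to 4 called genes of largest difference per pathway list and comparison, up to 2 per marker list, and the 3 genes most like *Tgfb1* and *Tgfbi*, with exceptions stated. Members and lists were chosen with earlier results of these data known. The 5 pathway lists and 7 marker lists (muscle fibre, macrophage, fibroblast, endothelial, pericyte and smooth muscle, regenerating fibre and satellite cell, T cell) are described by counts and medians. The fit was tested on simulated data. Promoters came from RefSeq (GRCm38.p6).

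The results were recomputed with the methods' t-test, with unequal variances, with limma on 2 groups at a time, with array weights or a trended and robust prior, with the filter removed or raised to 100, after centring or repeated quantile normalization, with gene means, with a replicate block, at an unadjusted p under 0.01 with 1.5-fold, and without each mouse in turn. Leaving out C57 mouse 3 and Pip6e-PMO mouse 2 together was chosen after seeing the data. Other software was Python 3.11.15 with pandas 2.3.3, NumPy 2.4.6 and matplotlib 3.10.9.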

Additional observations from a re-analysis of the deposited data

Results flagged for a closer look

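*Tgfb2* in Pip6e-PMO mouse 4 was 7.53 on the log2 scale, above the 7.36 to 7.38 of the other 3 treated mice, a gap that takes up most of the group's range. *Tgfbr3* in Pip6e-PMO mouse 1 was 8.57, below the 8.90 to 8.93 of the other 3 treated mice, in the same way. The 20 groups of 4 mice were checked for such gaps (10 genes in *mdx* and treated mice), and chance gives about 1 in 20.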

How the results depend on the processing

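Of 720 differences (the 10 genes in 3 comparisons under 24 alternatives), 662 kept their direction and side of the threshold, 17 lost and 15 gained a call, and 26 changed sign, none of the latter called; the cause was not tested. The members called in *mdx* against C57 were 2 with any mouse left out and 1 with the unequal-variance test. For treated against *mdx* they were 0 with the methods' t-test, the unequal-variance test and the rule of 1.5-fold at an unadjusted p under 0.01, 3 with array weights (*Tgfb1*, *Tgfbr1* and *Tgfbr3*), 3 without C57 mouse 3 and Pip6e-PMO mouse 2 together, and 0 to 2 with a mouse left out. For treated against C57 they were 1 with the methods' t-test and with the unequal-variance test, 6 with array weights, and 3 with any mouse left out. These 3 were not always the same genes. Without C57 mouse 3 or without Pip6e-PMO mouse 4, *Tgfb1* was called and *Tgfbr3* was not.

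Pathway genes called in *mdx* against C57 were 11 with the methods' t-test, 4 with the unequal-variance test and 14 to 26 with a mouse left out. In treated against *mdx* mice they were 0 with either test, 3 with only the 2 groups, 25 with array weights, 5 without the signal filter, 24 without C57 mouse 3 and Pip6e-PMO mouse 2 together, and 2 to 22 with a mouse left out. In treated against C57 mice they were 27, 8 with the methods' t-test, 1 with the unequal-variance test and 16 to 32 with a mouse left out. Calls over all 14494 probe sets swung as well. In treated against *mdx* mice they were 4614 with array weights and 88 with the methods' t-test, and in treated against C57 mice 6547 and 1274. These totals bear on the member counts above too.

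The signs that turned belonged to small differences. For *mdx* minus C57, leaving out a mouse gave -0.0875 to 0.0775 for *Tgfb3*, -0.025 to 0.235 for *Tgfbr3*, -0.105 to 0.21 for *Ltbp1* and -0.005 to 0.16 for *Ltbp4*, and array weights gave -0.0103 for *Ltbp1*. Without both named mice *Tgfbr3* was -0.025 and *Ltbp1* -0.105. For treated minus *mdx*, leaving out a mouse gave -0.035 to 0.065 for *Ltbp1* and -0.0942 to 0.1025 for *Ltbp3*, repeated quantile normalization gave -0.0389 for *Ltbp1*, and *Ltbp3* was -0.0957 with array weights and -0.0942 without both mice. For treated minus C57, leaving out a mouse gave -0.085 to 0.23 for *Ltbp1* and -0.2675 to 0.2075 for *Tgfbi*. Without both mice these were -0.09 and -0.223, and *Tgfbi* was -0.0118 with array weights, -0.0408 with centred arrays and -0.0308 with the replicate block.

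The mouse numbers of the labels do not pair the mice: the 10 same-numbered pairs correlated at -0.30 to 0.15 over their deviations, and 1 of 11 mice correlated best with its own number. With the number as a replicate block, 0 members (*Tgfbr1* at an adjusted p of 0.0594) and 3 pathway genes were called in treated against *mdx* mice.

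Scaling mattered for all probe sets: of those called in treated against C57 mice 2265 of 3564 were higher, 1957 of 3841 with centred arrays and 1729 of 3603 with repeated quantile normalization, and in *mdx* against C57 1023 of 1742, 881 of 1776 and 892 of 1688. In treated against *mdx* mice 1052 of 1615 were higher, and 734 of 1318 with repeated quantile normalization. The members called were the same in number under both scalings. With 3 or 4 mice a group, a difference that missed the threshold is not shown to be absent.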

Other observations

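The activin, myostatin and bone morphogenetic protein (BMP) branch, the other arm of the TGF-beta superfamily, had 2 of 17 tested genes higher and 3 lower in *mdx* than in C57 muscle, with a median of 0.17. *Fst* (follistatin, which binds activin and myostatin) was 5.99, 5.88 and 5.50 in C57, 6.53, 6.83, 6.65 and 6.45 in *mdx* and 6.38, 6.77, 6.68 and 6.63 in treated mice, so that all 8 *mdx* and treated mice lay above C57. It rose by 0.83 (adjusted p = 0.00276), and *Fstl1*, a related secreted protein, by 0.78. *Bmp7*, a BMP ligand, fell by 0.64 from 5.93 ± 0.12 to 5.29 ± 0.15 and was 5.0 ± 0.21 after treatment. Pip6e-PMO mouse 2, at 4.77, lay under the minimum signal, 4.91 on this scale. *Bmp7* had 2 probe sets, and these values are from the higher one. With gene means, 71 pathway genes were tested in *mdx* against C57 and 2 were called lower, against 72 and 3 in the main fit. *Acvr1b*, a type I activin receptor, fell by 0.52, a call that held in 5 of 11 fits that leave out a mouse (adjusted p up to 0.103, without C57 mouse 2). *Bmp6*, the third lower gene, fell by 0.44 and held in 4 of 11 (up to 0.136, without C57 mouse 3). It lies outside the naming rule and was chosen after its values were seen. Without C57 mouse 3 the list had 2 higher and 1 lower.

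After treatment 2 of the 17 genes of this branch (11.8%) were called, both receptors and both higher. This share is close to the 11.1% of all probe sets called. Without C57 mouse 3 there were 2 higher and 1 lower. Without Pip6e-PMO mouse 2 there were 3 higher and 2 lower, in the fit that called 4123 of all 14535 probe sets. *Acvr2a*, a type II receptor for activin and myostatin, was 6.15 in each C57 mouse, 6.49, 6.49, 6.09 and 6.20 in *mdx* and 6.75, 7.13, 6.89 and 7.10 in treated mice, all treated mice above all others, and rose by 0.65 against *mdx* (adjusted p = 0.0116) with every mouse left out in turn. *Bmpr2*, the type II BMP receptor, was 8.84, 8.68, 8.87 and 8.57 in *mdx* and 9.73, 9.30, 9.14 and 9.17 in treated mice, which did not overlap, a rise of 0.60 (0.0242) that was lost without *mdx* mouse 4 (0.0717) or Pip6e-PMO mouse 4 (0.0502).

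After treatment 2 of 8 endothelial and 1 of 7 pericyte and smooth muscle markers were called, all higher, and 0 of either by the methods' t-test. Of all probe sets 11.1% were called in this comparison, and 7.26% called and higher. Without Pip6e-PMO mouse 2 the marker counts were 3 and 2, in the fit that called 4123 of all 14535 probe sets. Other endothelial markers, such as *Esam* (-0.03), *Emcn* (0.01) and *Vwf* (0.03), and the smooth muscle actin *Acta2* (-0.16) had differences from *mdx* that did not pass. Endothelial markers summed to 2865 to 3143 across C57, 2878 to 3460 across *mdx* and 3328 to 4078 across treated mice, and pericyte and smooth muscle markers to 3536 to 3975, 3457 to 4182 and 4142 to 4351. In *mdx* limma called 0 of 8 endothelial markers (1 lower at an unadjusted p under 0.05, 0 by the methods' t-test) and 1 of 7 pericyte and smooth muscle markers, *Cnn1* (calponin), which fell by 0.63, a call that held in 4 of 11 fits that leave out a mouse (up to 0.191, without C57 mouse 3). *Pecam1* and *Tek*, endothelial surface proteins, rose by 0.78 (adjusted p = 0.0277) and 0.97 (0.0332) against *mdx*, and *Rgs5*, a pericyte marker, by 1.02 (0.0146). Apart from *Emcn* and *Cnn1*, the genes of this paragraph lie outside the naming rule and were chosen after their values were seen. The first 2 calls held in 6 of 11 fits that leave out a mouse (up to 0.0798 without *mdx* mouse 4 and 0.0963 without Pip6e-PMO mouse 4) and that of *Rgs5* in all 11. The part of vessel cells in the *Tgfbr1*, *Tgfbr3*, *Acvr2a* and *Bmpr2* values was not tested.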
